A study of Homo sapiens with 38 samples.

Results

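The MYB, AHI1 and HBS1L locus on the long arm of human chromosome 6 was described by the regions that chromatin immunoprecipitation and sequencing (ChIP-seq) placed there for GATA3, BHLHE40 and the histone mark H3K27ac. Its members were all regions lying wholly within the span of the RefSeq records of these 3 genes and 100 kb on each side, chr6:134860378-135597740 in GRCh38, a window of 737363 bp. The window held 194 of the 168784 regions in 3 lists: 55 of 29009 for GATA3, 41 of 26205 for BHLHE40 and 98 of 113570 for H3K27ac. The locus was selected on the BHLHE40 signal values, because it holds the highest one, so the BHLHE40 values below describe it and test nothing.

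The series used Jurkat cells, an established human line of T-cell acute lymphoblastic leukaemia, in 38 samples that form 19 groups of 2. The lists used here came from 3 of those groups (6 samples), all labelled Ctrl_LV, a control lentivirus, and differing only in the antibody. These cells were stimulated with the phorbol ester PMA at 50 ng/ml and the calcium ionophore ionomycin at 500 ng/ml, with a duration of 5 hours in the sample labels but 2 hours in the protocol text. Cells over-expressing BHLHE40, cells with a base-editing guide (sg70_P260) or its control guide (sgCtrl_P258), and the H3K27me3, TAL1 and input samples were not analysed here. A list joins the 2 samples of a group, so the data give no replicate error, no difference was tested and the depth is unknown. The signal value, q-value and width of a region are the authors' own, and a signal value is compared only within its list. Intervals on shares are 95% Wilson intervals and cover counting only, since regions of 1 list are not independent replicates.

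MYB encodes a DNA-binding transcription factor that blood progenitors and immature T cells need in order to proliferate and that is active in many T-cell leukaemias. The interval between HBS1L and MYB is known for distal elements that control MYB in red-cell precursors. HBS1L encodes a GTPase that releases stalled ribosomes, and AHI1 encodes a protein of the ciliary transition zone, first noted as a retroviral integration site near Myb in mouse leukaemia. GATA3 is a zinc-finger factor that recognises GATA motifs and is required for T-cell development. BHLHE40 is a basic helix-loop-helix repressor induced on T-cell activation that prefers E-boxes, above all CACGTG. H3K27ac, acetylation of lysine 27 on histone H3, is found at active promoters and enhancers.

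The sequences that carry the description are the one under the strongest BHLHE40 region and those at the starts of the 3 genes, all from RefSeq GRCh38.p14. They are printed 5′ to 3′, and capitals mark CANNTG (the general E-box, of which CACGTG is one form) and GATAA, each searched on both strands, so that a GATAA on the opposite strand reads TTATC. The first is the 300-base window at the start of the non-coding gene LOC124901407, which lies inside AHI1 (chr6:135323134-135323433, plus strand), and it holds the summits of both the strongest BHLHE40 and the strongest GATA3 region of the locus.
LOC124901407 start: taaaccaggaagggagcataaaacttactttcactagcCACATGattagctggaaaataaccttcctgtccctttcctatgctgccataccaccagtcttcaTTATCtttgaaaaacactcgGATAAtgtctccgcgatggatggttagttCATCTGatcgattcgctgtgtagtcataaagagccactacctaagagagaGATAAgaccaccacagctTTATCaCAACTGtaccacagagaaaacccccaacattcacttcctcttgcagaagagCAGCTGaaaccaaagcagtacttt
The second is the 30 bases around the GATA3 summit at the HBS1L start (chr6:135054743-135054772, plus strand).
HBS1L start: cgcttagatactGATAAggcgcCAACTGca
The last sequences are the 250 bases before the MYB start (chr6:135181058-135181307, plus strand), which no region of the 3 lists overlaps, and the 250 bases before the AHI1 start (chr6:135497741-135497990, minus strand), which hold a BHLHE40 summit.
MYB upstream: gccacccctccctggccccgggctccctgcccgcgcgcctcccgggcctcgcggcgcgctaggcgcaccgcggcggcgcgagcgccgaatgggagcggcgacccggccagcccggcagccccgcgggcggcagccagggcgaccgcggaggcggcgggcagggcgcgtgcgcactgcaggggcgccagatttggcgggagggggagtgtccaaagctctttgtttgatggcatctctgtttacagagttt
AHI1 upstream: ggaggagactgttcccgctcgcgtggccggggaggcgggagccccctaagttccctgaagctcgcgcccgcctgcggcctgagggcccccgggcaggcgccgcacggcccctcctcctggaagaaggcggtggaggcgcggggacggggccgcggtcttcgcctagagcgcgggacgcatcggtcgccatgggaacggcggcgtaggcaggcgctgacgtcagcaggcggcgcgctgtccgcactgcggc

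Promoter windows of 300 bases were matched for 8 of the 15 gene records that meet the locus. The LOC124901407 window held 4 CANNTG and 4 GATAA matches and no CACGTG. Over all 35116 promoter windows of this length, at least 1 CACGTG was present in 7.26%, CANNTG in 68.7% and GATAA in 22.7%. No share is given for windows with 4 or more matches. The windows of HBS1L, MYB, AHI1 and AHI1-DT, the divergent non-coding transcript at the AHI1 start, held none of these 3 motifs, and CACGTG was in none of the 8. A match describes letters only, and its absence says nothing about the factor.

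Regions of both factors ran through the whole locus, from the far end of HBS1L to a pair 387 kb beyond the MYB start. GATA3 had 74.6 regions per Mb in the window against 11.7 over chromosome 6, BHLHE40 55.6 against 9.60, and H3K27ac 133 against 46.9. GATA3 regions covered 7.05% of the window and 0.864% of the chromosome, and BHLHE40 regions covered 6.59% and 0.978%. By summit, the AHI1 record held 20 GATA3 and 9 BHLHE40 regions, and the interval between HBS1L and MYB held 15 and 10. The HBS1L record held 7 GATA3 and 6 BHLHE40 regions, the MYB record 4 and 6, and the interval between MYB and AHI1 held 5 and 6. The low flank beside HBS1L, where ALDH8A1 lies, held no GATA3 region and 1 BHLHE40 region, with a signal value of 9.06. The high flank held 4 and 3.

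**Figure D1:**
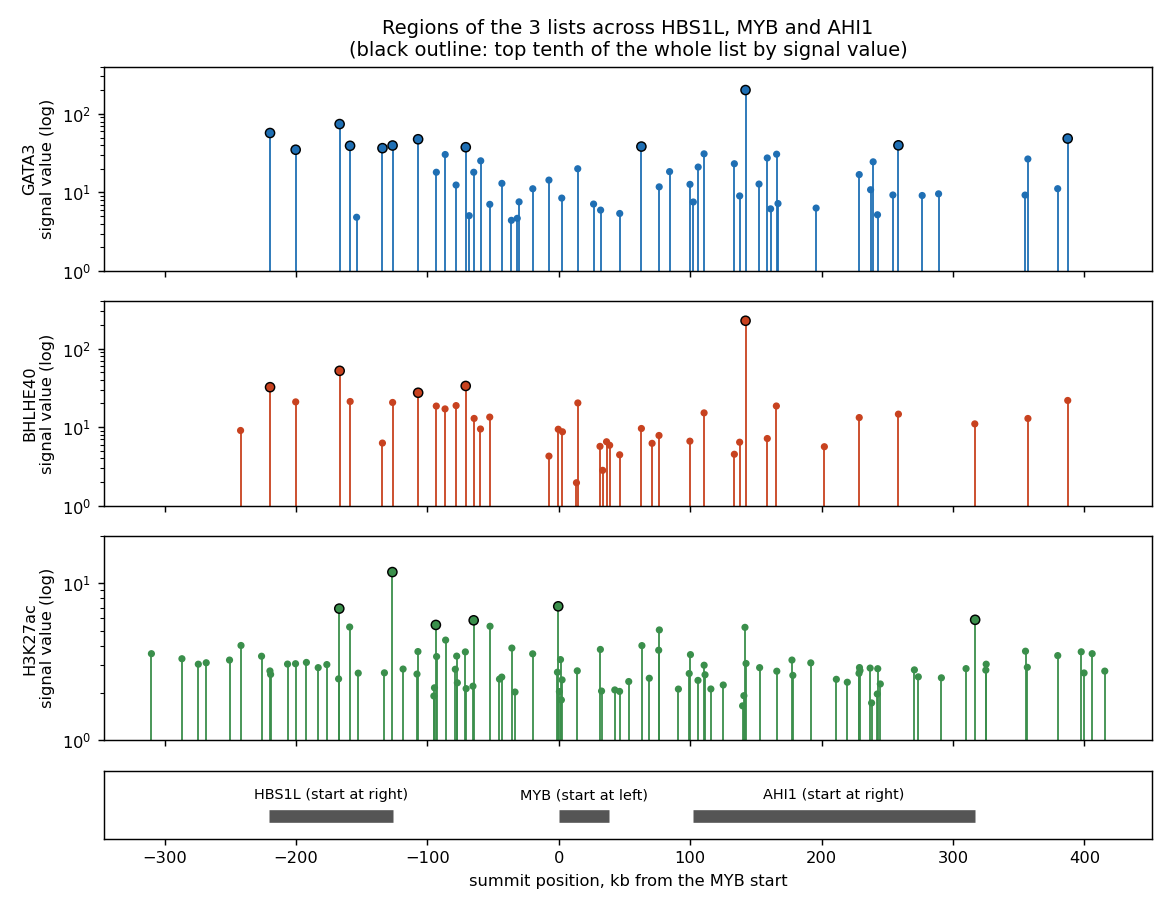
Signal value of every region (log axis) against the position of its summit in kb from the MYB start, for GATA3 (55 regions), BHLHE40 (41) and H3K27ac (98), with the 3 gene records as bars below. Black outlines mark regions in the top 10% of their own list. GATA3 and BHLHE40 both reach their maximum at 142 kb inside AHI1, while the highest H3K27ac value lies at the HBS1L start.

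The highest BHLHE40 signal value of the whole list, 226, lay at chr6:135322416-135324727 inside AHI1, 142 kb beyond the MYB start, with a −log10 q of 5336. This is the value on which the locus was chosen. The next values in the list were 195 on chromosome 14 and 193 on chromosome 3, and the next in the locus was 52.1, 4.34-fold lower than the first. The GATA3 region at the same place, chr6:135322573-135324956, had a signal value of 201 and rank 15 of 29009, or rank 5 by q-value. It stood 2.71-fold above the next GATA3 region of the locus, at 74.2. Both factors therefore had their maximum at 1 place, with summits 31 bp apart.

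H3K27ac lay on both sides of these summits and not on them. One acetylated region, with a signal value of 5.24 and a −log10 q of 113, ended 129 bp below the BHLHE40 summit. The next, with a signal value of 3.09, began 25 bp above it. Both factor summits fell in the 153 bp between these regions. By signal value both regions fell below the limit of the top 10% of the H3K27ac list, 5.41, but by q-value they ranked 1617 and 6598 of 113570, within its top 1.42% and 5.81%. A further pair of weak acetylated regions, at 1.92 and 1.66, lay within 3 kb on the low side.

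**Figure D2:**
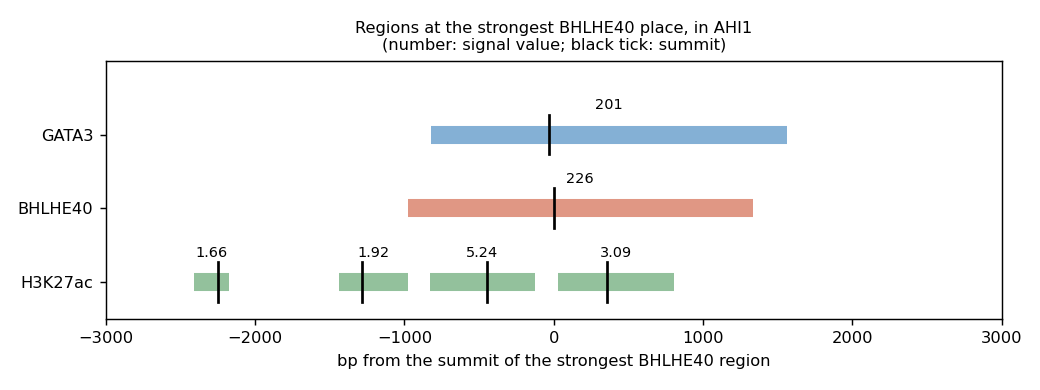
Extent of each region within 3 kb of the summit of the strongest BHLHE40 region, in bp from that summit, with the signal value above each bar and a black tick at each summit. The GATA3 and BHLHE40 summits lie 31 bp apart in a space of 153 bp between acetylated regions of 5.24 and 3.09.

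In the printed sequence, the GATA3 summit is base 230 and the BHLHE40 summit base 261, counted from 1 at the 5′ end. A CAACTG and a GATAA on the opposite strand, separated by a single base, lay nearest to the GATA3 summit, with centres 1.5 bp and 8 bp away. The other 3 GATAA matches were centred 26, 105 and 125 bp from it. The nearest E-box to the BHLHE40 summit was CAGCTG, 18.5 bp away. The base composition of the window was 43% G and C, against 71% in the MYB window.

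HBS1L, the gene of ribosome rescue, was the only one of the 3 members whose start was covered by all 3 lists. GATA3 covered it at chr6:135053912-135055381 with a signal value of 39.6, BHLHE40 at chr6:135053963-135055292 with 20.6, and H3K27ac at chr6:135053959-135055266 with 11.8, the highest acetylation value of the locus (rank 1419 of 113570). The GATA3 summit lay 65 bp and the BHLHE40 summit 26 bp downstream of the start. In the 30 bases printed for HBS1L, the GATA3 summit fell on the centre of the GATAA, and the CAACTG was centred 10.5 bp from it. This stretch also lies upstream of LOC124901405, a non-coding gene on the other strand.

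The MYB start was covered by no region of any list. Of the starts of 15843 protein-coding genes, 17.8% lay inside a GATA3 region, 43.3% inside a BHLHE40 region and 38.1% inside an H3K27ac region. The MYB start lay in a space of 564 bp between an acetylated region that ended 252 bp upstream and one that began 313 bp downstream. The upstream one had a signal value of 7.13 and a −log10 q of 99.6, the second highest signal value of the locus. The downstream one had 2.04. The nearest BHLHE40 summit lay 466 bp upstream, in a region of 9.40 (chr6:135179812-135181026). The nearest GATA3 summit was 2201 bp downstream, in a region of 8.48.

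The AHI1 start was covered by BHLHE40 and H3K27ac without GATA3. BHLHE40 had a signal value of 11.0 (chr6:135497194-135498673, summit 108 bp upstream) and H3K27ac had 5.85. The nearest GATA3 summit lay 27448 bp away inside the gene, with a signal value of 9.60. At the start base itself the 3 genes differed. All 3 lists covered it at HBS1L, BHLHE40 and H3K27ac at AHI1, and none at MYB. With summits within 1 kb of the start, MYB had BHLHE40 (9.40) and H3K27ac (7.13 and 2.04) without GATA3, as AHI1 did.

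Most BHLHE40 regions lay at a place with GATA3, while 23 of the 55 GATA3 regions had no BHLHE40. Of the 41 BHLHE40 regions, 32 overlapped a GATA3 region by at least 1 bp (78.0%, interval 63.3% to 88.0%), against 53% of the whole list. Of the 55 GATA3 regions, 32 overlapped BHLHE40 (58.2%, interval 45.0% to 70.3%), against 48.7%. The interval for BHLHE40 lay above the share of its list, and the interval for GATA3 included the share of its list. This is no test, since neighbouring regions are not independent and the locus was chosen on its strongest BHLHE40 region. H3K27ac overlapped 33 of the 55 GATA3 regions (60%, interval 46.8% to 71.9%), against 49.1% of the list, and 27 of the 41 BHLHE40 regions (65.9%, interval 50.5% to 78.4%), against 76.4%. Both of those intervals included the share of the whole list.

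**Figure D3:**
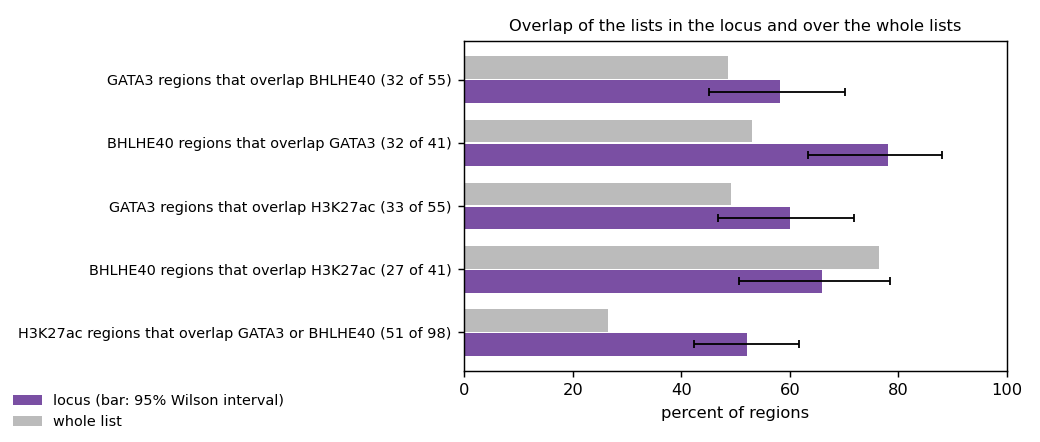
Percent of regions that overlap another list, for the locus (purple, with 95% Wilson intervals that cover counting only) and for the whole list (grey). The BHLHE40 regions with GATA3 (78.0% against 53%) and the H3K27ac regions with either factor (52.0% against 26.4%) are the shares whose interval lies above the whole list. This is no test, since neighbouring regions are not independent and the locus was chosen on its strongest BHLHE40 region.

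The overlapping regions formed 32 pairs, of which 24 overlapped H3K27ac (75%, against 77.4% of shared GATA3 and 77.6% of shared BHLHE40 regions over the whole lists). Pairs with a higher GATA3 signal value tended to have a higher BHLHE40 value, with a Spearman's rho of 0.716 (n = 32). It was 0.687 (n = 31) without the strongest pair. Over the 14275 overlapping pairs of the whole lists rho was 0.263. These are descriptions, since neighbouring pairs come from the same libraries. Shared GATA3 summits lay a median of 37.5 bp from a BHLHE40 summit, and 35 bp over the whole list. The distance ran from 1 to 524 bp, and 22 of the 32 were at most 50 bp apart. All 12 GATA3 regions and all 5 BHLHE40 regions of the locus that ranked in the top 10% of their lists had a partner, as did 90.2% and 86.7% of such regions over the whole lists.

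Inside HBS1L, 6 pairs lay along the gene. The strongest was at −167 kb from the MYB start, with 74.2 for GATA3 (chr6:135012913-135015190) and 52.1 for BHLHE40 (chr6:135013865-135015165), and it overlapped an acetylated region of 6.90, the third highest of the locus. A pair at the far end of the gene, at −220 kb, had 57.1 and 32.2. At −159 kb the values were 39.2 for GATA3 and 21.2 for BHLHE40, and at −200 kb they were 35.0 and 21.0. The pair at −134 kb was uneven: GATA3 reached 36.6, in the top 10% of its list, while BHLHE40 had 6.27, and no H3K27ac region overlapped it.

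Between HBS1L and MYB, the interval of the known distal MYB elements, 9 pairs were listed. The strongest pair by GATA3 lay at −107 kb, with 47.6 for GATA3 and 27.4 for BHLHE40 (chr6:135073746-135074649). At −70.9 kb, at the end of the non-coding gene LOC105378010, GATA3 had 37.6 and BHLHE40 33.4. Both places overlapped H3K27ac, with signal values of 3.68 and 3.66. The GATA3 region nearest to the gene on this side, at −7.6 kb, had 14.4 and its BHLHE40 partner 4.28, without H3K27ac. When factor regions with gaps of at most 10 kb were joined into 20 clusters, the widest, 74.6 kb from −93.9 to −19.4 kb, lay in this interval, with 13 GATA3, 7 BHLHE40 and 15 H3K27ac regions. With gaps of at most 5 kb the widest was instead 21.0 kb, over the 3′ end of MYB, and with gaps of at most 20 kb it was 280 kb, from HBS1L into AHI1.

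Within MYB, 3 pairs were listed. The strongest lay at 14.4 kb, with summits just before the non-coding gene LOC105378011, and had values of 20.0 for GATA3 (chr6:135194931-135196122) and 20.3 for BHLHE40. It overlapped an acetylated region of 2.77. None of the regions within MYB ranked in the top 10% of its list. Between MYB and AHI1, the strongest GATA3 region, at 62.8 kb, had 38.4, and its BHLHE40 partner, with a summit 1 bp away, had 9.61. The next GATA3 region of that interval had 18.4 and no partner, and the next BHLHE40 region had 7.83.

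Within AHI1, 8 pairs were listed. After the strongest place, the GATA3 maximum was 39.8 at 258 kb (chr6:135438819-135439997), with a BHLHE40 partner of 14.6 and no H3K27ac. The second BHLHE40 value in the gene was 18.6, at 166 kb, beside a GATA3 region of 30.7. With gaps of at most 10 kb, the cluster around the strongest place was the second widest, 34.0 kb, with 8 GATA3 and 5 BHLHE40 regions. In the high flank, which AHI1-DT spans, a pair at 387 kb had 48.5 for GATA3 and 21.8 for BHLHE40 without H3K27ac, and a pair at 357 kb had 26.7 and 12.9.

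**Figure D4:**
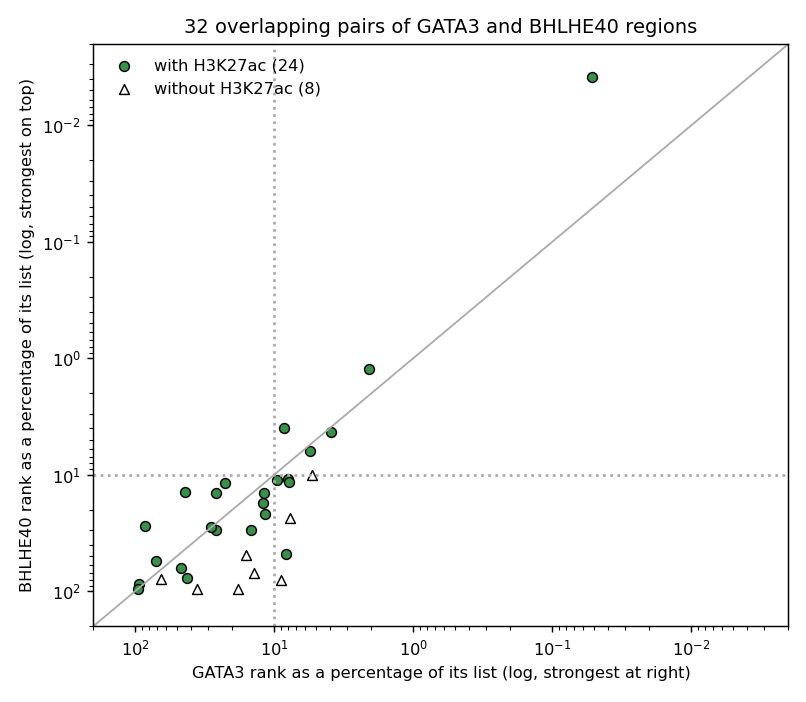
Rank of each of the 32 overlapping pairs as a percentage of its list, for GATA3 (horizontal) and BHLHE40 (vertical), on log axes with the strongest regions at the top right. Dotted lines mark 10%, filled circles the 24 pairs with H3K27ac and open triangles the 8 without. Within 10% for both factors lie 5 pairs, all with H3K27ac, which at −220 kb was weak (−log10 q of 2.58). Of shared regions of any rank over the whole lists, 77.4% (GATA3) and 77.6% (BHLHE40) overlapped H3K27ac.

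Ranked within their own lists, 21 of the 32 pairs stood higher for GATA3 and 11 for BHLHE40. No such count is given for the whole lists. The 5 pairs in the top 10% of both lists lay at −220, −167, −107, −70.9 and 142 kb, and all 5 overlapped H3K27ac. At −220 kb the acetylation was weak, with a highest signal value of 2.77 and a −log10 q of 2.58. Over the whole lists, H3K27ac overlapped 77.4% of shared GATA3 and 77.6% of shared BHLHE40 regions of any rank. No whole-list share is given for pairs in the top 10% of both. The 8 pairs without H3K27ac included 3 with a GATA3 value in the top 10%, at −134, 258 and 387 kb. Among the 24 pairs with H3K27ac, the BHLHE40 summit itself lay inside an acetylated region in 15 (62.5%, whole list 71.5%) and the GATA3 summit in 17 (70.8%, whole list 72.4%).

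Regions of 1 factor alone were weaker. The 23 GATA3 regions without BHLHE40 had a median signal value of 9.14, and the 32 shared ones had 27.1. Over the whole list the medians were 10.1 and 13.9. Of these 23, 12 lay within AHI1, with values from 5.20 to 24.5, and 6 lay between HBS1L and MYB. The 9 BHLHE40 regions without GATA3 had a median of 6.22 and the 32 shared ones 14.0, against 7.96 and 11.4 over the whole list. H3K27ac overlapped 9 of the 23 GATA3 regions (39.1%, whole list 22.3%) and 3 of the 9 BHLHE40 regions (33.3%, whole list 75.1%). Those 3 BHLHE40 regions were the ones before the MYB start, at the AHI1 start and in the low flank.

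Over MYB and just beyond its end, BHLHE40 formed wide, weak regions. In the locus 7 of 41 BHLHE40 regions were at least 2000 bp wide (17.1%, interval 8.53% to 31.3%), against 4.74% of the whole list, and 5 of the 7 had their summits between 2.7 and 46.3 kb beyond the MYB start. From the start of the gene outward they were 2874 bp wide with a signal value of 8.72, 3106 bp with 5.69, 3254 bp with 6.51, 3904 bp with 5.88 and 2180 bp with 4.45. The median signal value of the BHLHE40 list was 9.35, so all 5 were below it. The regions of 3254 and 3904 bp (chr6:135214948-135218201 and chr6:135219082-135222985), at the 3′ end of the gene, overlapped neither GATA3 nor H3K27ac. Of the 4 GATA3 regions within MYB, 1 was also at least 2000 bp wide and weak. It was 2482 bp wide (width rank 102 of 29009) with a signal value of 5.96, and it overlapped the BHLHE40 region of 3106 bp.

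**Figure D5:**
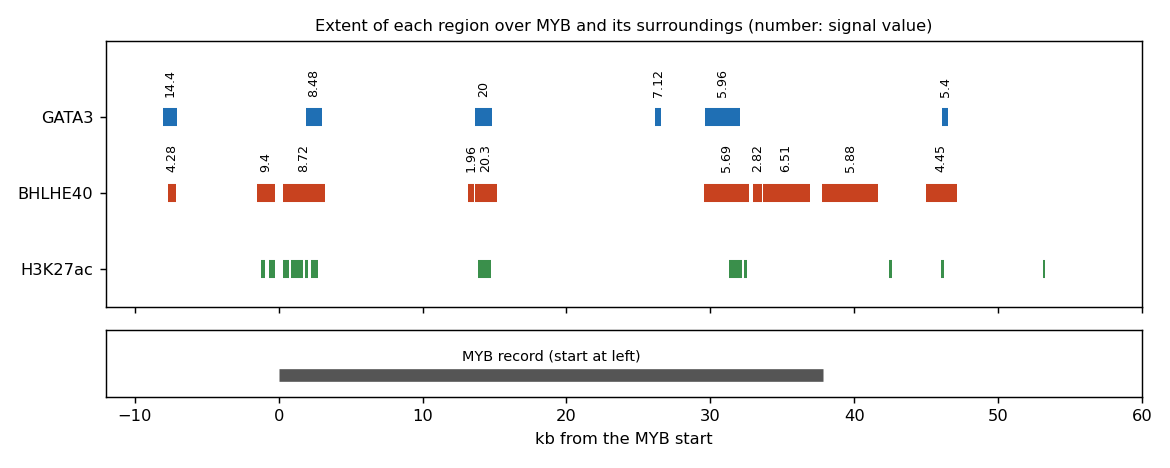
Extent of each region from 12 kb before to 60 kb beyond the MYB start, with the signal value above each GATA3 and BHLHE40 bar and the MYB record below. BHLHE40 bars run nearly without a break over the 3′ end of the gene, where GATA3 and H3K27ac bars are few.

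BHLHE40 regions covered 31.4% of the MYB record, against 5.52% of HBS1L and 3.93% of AHI1. GATA3 regions covered 13.8% of MYB and H3K27ac regions 10.5%. Of the 7673 protein-coding records at least as long as MYB, 2 had a larger share covered by BHLHE40: RBM39, a splicing factor gene, with 52.3% and NR4A3, an early-response nuclear receptor gene, with 34.4%. The median over these records was 0.627%. This comparison was chosen after its values were seen. AHI1, the longest of the 3 genes at 214 kb, stood out by number instead: 18 of 20056 protein-coding records overlapped more GATA3 regions than its 20, and 81 overlapped more BHLHE40 regions than its 10. These counts are not adjusted for the length of a record.

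Acetylated regions were spread over the whole locus. Their median signal value was below that of the list (2.85 against 3.31) and their median −log10 q above it (3.45 against 3.00), and by signal value 6 of 98 regions ranked in its top 10%. Those 6 were the regions at the HBS1L start, before the MYB start, at the AHI1 start (5.85), at −167 kb in HBS1L, and at −64.8 kb (5.81) and −93.6 kb (5.43) between HBS1L and MYB. A −log10 q of at least 5 was listed for 35 of the 98 (35.7%, interval 26.9% to 45.6%), against 25.1% of the list. A factor region overlapped 51 of the 98 (52.0%, interval 42.3% to 61.7%), against 26.4%. Among the 35 regions with the higher q, 33 overlapped a factor (94.3%, whole list 70.0%), and among the other 63 it was 18 (28.6%, whole list 11.8%). Both factors met 31 of the 98 regions (31.6%, whole list 11.8%) and GATA3 alone 12 (12.2%, whole list 3.50%). BHLHE40 alone met 8 (8.16%, whole list 11.1%), and neither factor met 47 (48.0%, whole list 73.6%).

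The nearest regions inside and outside each edge of the window were as follows, and some lay far from the edge. On the low side the nearest BHLHE40 region inside had a signal value of 9.06 and the nearest outside 32.5, and for GATA3 these were 57.1 and 25.2. The GATA3 summits lay 101 kb inside and 227 kb outside that edge. On the high side BHLHE40 had 21.8 inside and 9.05 outside, and GATA3 48.5 and 32.8. The outside summits lay 26.9 kb (BHLHE40) and 454 kb (GATA3) beyond that edge. For H3K27ac the values were 3.56 inside and 4.07 outside on the low side, and 2.76 and 2.63 on the high side. The BHLHE40 region outside the low edge, 227 kb from it, also ranked in the top 10% of its list. No factor region lay in the first 78.4 kb of the window on the low side. Between factor regions, the longest gap was 37.2 kb, beginning just past the AHI1 start.

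Genes of the same pathways were counted by the regions within 10 kb of their records. MYB, HBS1L and AHI1 are counted in their own lists, and each had regions of all 3 lists. Of all protein-coding records, 53.4% had a GATA3, 65.4% a BHLHE40 and 82.1% an H3K27ac region. Of the MYB family and its coactivators, all 5 (MYB, MYBL1, MYBL2, EP300 and CREBBP) had BHLHE40 and H3K27ac, and 3 had GATA3. CREBBP, an acetyltransferase that MYB recruits, reached 50.1 for GATA3 and 34.6 for BHLHE40, and EP300, its close relative, had 36.5 for BHLHE40 and no GATA3 region. Of 9 genes of the TAL1 complex and its partners in T-cell leukaemia, 8 had GATA3, 9 BHLHE40 and 9 H3K27ac. ETS1, a T-cell transcription factor gene of this list, had a GATA3 maximum of 127, and the GATA3 gene itself had 75.8. Of 9 target or partner genes of MYB in blood cells, 6 had GATA3, 7 BHLHE40 and 9 H3K27ac. KIT, a growth factor receptor gene, and CCNE1, a cyclin gene, had no factor region.

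All 5 ribosome rescue genes, HBS1L among them, had regions of all 3 lists. Of all protein-coding records, 47.0% had both factors within 10 kb. HBS1L had the highest GATA3 value of the 5 (74.2 against 16.8 for PELO, its partner in releasing ribosomes), without adjustment for the length of a record. Of 13 genes of the ciliary transition zone, 6 had GATA3, 11 BHLHE40 and 13 H3K27ac. AHI1 held the maximum of this list for both factors, which for BHLHE40 follows from the choice of the locus. In BHLHE40, B9D2, another transition zone gene, followed with 21.0.

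The records most like each member in the maximum of all 3 lists were found over 7036 protein-coding records with a region in each, by the largest difference in percentile. For AHI1 they were SLC2A6 (1.34 percentile points), NOL4L (2.90) and MTSS1 (3.06). SLC2A6 had a GATA3 maximum of 107 and a BHLHE40 maximum of 77.9. For HBS1L they were CAPZB (1.36), YWHAG (2.32) and DNAJB6 (2.98), and for MYB they were ADAMTS19 (0.782), CRYBB1 (2.68) and RPL3 (2.96). The likeness is over 3 values per gene and rests on the maximum within each record.

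The cell type of the samples was checked by H3K27ac within 1 kb of marker genes, which 73.4% of protein-coding records had. All 10 T-cell markers had such a region, among them CD3E, CD2 and LCK, and so did 3 of 5 B-cell, 2 of 6 myeloid, 2 of 5 erythroid and 2 of 3 natural killer markers. Among the markers with none were the B-cell marker MS4A1, the myeloid CD14, LYZ, CSF1R and MPO, the erythroid HBB, KLF1 and ALAS2 and the natural killer marker NCAM1. Activity of the listed elements and expression of MYB, AHI1 and HBS1L were not measured in these lists.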

How the data were processed

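ChIP-seq of stimulated Jurkat cells with a control lentivirus was available as 3 peak lists in narrowPeak layout. Per the submitters' processing notes, bcl2fastq 2.20, MACS2 and hg38 were named. Aligner, filters and input subtraction are not given in the sources used here. Per the labels, the factor lists passed an irreproducible discovery rate (IDR) of 0.05, which keeps peaks whose ranks repeat between samples. The H3K27ac peaks were pooled, so that list keeps many weak regions. The deposited score of the factor lists, from 540 to 1000, reflects the IDR. The signal value and the −log10 p and −log10 q-values are the authors' deposited values per peak. What the signal is relative to is not given in the sources used here. Regions were ranked or filtered by these values within 1 list only.

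Samples were grouped by their titles. Overlap meant at least 1 bp, coordinates are 1-based, and distances to MYB run along the plus strand. Starts, gene records and sequences came from RefSeq GRCh38.p14, which gave no exons or untranslated regions. Regions described singly were the 3 strongest of each list, the 2 strongest of each factor per segment, those of the factors in the top 10% of their list, those within 1 kb of a start, and those at the edges of the window. The members and lists were chosen with earlier results of these data known. The overlap functions, tested on simulated data, recovered 600 of 600 planted overlaps among 2000 regions. Python 3.11.15 with pandas 2.3.3, numpy 2.4.6, scipy 1.17.1 and matplotlib 3.10.9 was used. Alternatives changed the score, the q-value, the overlap rule, the flank and the gap.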

Additional observations from a re-analysis of the deposited data

How the results depend on the processing

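Of 39 values recomputed under another setting, over 13 results, 32 stayed within the limits set for them and 7 moved. Some of the 32 still shifted. The widest cluster, 74.6 kb in the main setting, was 50.9 kb with a score of at least 830 in both factor lists. The share of BHLHE40 regions with H3K27ac, 65.9% in the main setting, was 77.1% with a BHLHE40 score of at least 830. It was 53.7% with H3K27ac limited to a −log10 q of 5 or more. The whole-list share of 76.4% is for the main setting only. With H3K27ac limited to a −log10 q of 5 or more, its count fell to 35. This limit also lowered the share of GATA3 regions with H3K27ac to 43.6% and raised the share of H3K27ac regions with a factor to 94.3%. The strongest GATA3 region ranked 5 by −log10 q and 5 by −log10 p. The widest cluster was 21.0 kb long with gaps of at most 5000 bp and 280 kb with gaps of at most 20000 bp. Its length and its place both depended on the gap: the first lay over the 3′ end of MYB, and the second ran from HBS1L into AHI1. No paired analysis was possible because the 2 samples of a group share 1 list, and for the same reason no sample could be left out. Without values per sample, replicate error cannot be given for any region. The depth behind the lists is unknown, so a place without a region, such as the MYB start, may hold signal below the threshold of its list.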
